A study of Mus musculus with 7 samples.

Results

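The Hox genes were examined in the open chromatin of Lgr5-positive intestinal stem cells, the dividing cells of the crypt base. Members were the 38 protein-coding genes listed under the symbols Hoxa, Hoxb, Hoxc or Hoxd with a paralogue number, out of 21631 protein-coding genes with a position on chromosomes 1 to 19 or X in the RefSeq table. They fall into 4 clusters: 10 members in HoxA on chromosome 6, 10 in HoxB on chromosome 11, 9 in HoxC on chromosome 15 and 9 in HoxD on chromosome 2. A peak counted for a member when its summit lay in the gene body or within 1 kb of either gene end.

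Hox proteins are homeodomain transcription factors that give cells their position along the head-to-tail axis of the embryo. Genes of low paralogue number sit at one end of a cluster and are used in anterior structures, and genes of high number, up to the Hox13 group, are used in posterior ones, in the gut the hindgut. Closed Hox genes are typically held by Polycomb complexes, while trithorax proteins keep open ones active, and adult gut cells retain a regional Hox pattern from development.

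Accessibility was measured by Omni-ATAC-seq, in which the transposase Tn5 inserts adapters into open DNA. All recipients were lethally irradiated B6-GFP-Lgr5 mice, females of 8 to 12 weeks. The Syn group (3 libraries, the controls) had syngeneic transplants, and the Allo group (4 libraries, labelled as graft-versus-host disease) had BALB/c donors. A library held 50000 GFP-sorted cells pooled from 3 to 4 mice at day 7 after transplantation, so a replicate is a pool and not 1 animal, irradiation is common to both groups, and no unirradiated or untransplanted group was compared. The labels name the tissue as intestine and do not give the gut segment, on which Hox use depends.

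The Syn lists held 71925 to 76438 peaks and the Allo lists 62977 to 88861, Allo 1 having the shortest list and Allo 3 the longest. Allo 3 and Allo 4 name their peaks in a form unlike that of the other 5 lists, and nothing in the sources states that 1 calling setting served for all. The median peak width was 499 to 510 bp in the Syn lists and 449 to 477 bp in the Allo lists, without overlap. Read depth is unknown. Among the sorted cells' defining markers, 4 of 5 stem cell genes (Lgr5, Olfm4, Ascl2 and Smoc2) and 5 of 5 epithelial genes carried a peak at a gene end in every library. For leukocytes this held for 2 of 8 (Itgam and Spi1), and for stroma and endothelium for 0 of 9, beside 57.6% of all genes. Peaks elsewhere in the gene were found on these lists too. Cd3e and Cd3g had 0 in every library, Csf1r 1 to 2 and Ptprc 3 in Allo 3, 1 in Allo 4 and 0 in the others. Of the stromal and endothelial genes Cdh5 had 0 throughout, while Pecam1 had 5 to 9, Pdgfrb 2 to 3 and Dcn 1 to 3 in each library, and Col1a1 had a gene-end peak in 6 of 7. Of the enteric nervous system genes, Ret and Elavl4 were open at an end in every library and Sox10 in Allo 3 and 4 only.

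Promoter sequences are shown because windows before Hox starts held different numbers of CpG when peaks touched them in all libraries or in none. RefSeq (GRCm38.p6, the build mm10) gave 24 transcription starts for 22 of the 38 members. The 250 bases before the start are printed 5′ to 3′ on the strand of the gene, with each CpG in capitals. Hoxa5 (chr6:52204588-52204837, minus strand) and Hoxd13 (chr2:74667975-74668224, plus strand) are starts whose window was touched by a peak in all 7 libraries. Hoxa11 (chr6:52245811-52246060, minus strand) and Hoxd12 (chr2:74674763-74675012, plus strand) belong to members with no peak in any library. Hoxa6 (chr6:52208673-52208922, minus strand) is shown as a window rich in CpG that no peak touched.
Hoxa5: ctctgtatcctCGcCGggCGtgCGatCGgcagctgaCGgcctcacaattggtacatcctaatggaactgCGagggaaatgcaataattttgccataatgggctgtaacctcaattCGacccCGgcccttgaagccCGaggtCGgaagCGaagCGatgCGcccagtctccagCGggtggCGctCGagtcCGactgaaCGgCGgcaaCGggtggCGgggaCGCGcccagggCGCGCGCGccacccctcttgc
Hoxd13: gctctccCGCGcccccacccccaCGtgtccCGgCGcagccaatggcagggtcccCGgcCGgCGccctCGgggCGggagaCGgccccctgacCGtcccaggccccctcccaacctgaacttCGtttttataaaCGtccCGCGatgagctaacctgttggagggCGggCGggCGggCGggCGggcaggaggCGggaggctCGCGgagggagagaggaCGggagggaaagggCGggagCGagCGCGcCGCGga
Hoxa11: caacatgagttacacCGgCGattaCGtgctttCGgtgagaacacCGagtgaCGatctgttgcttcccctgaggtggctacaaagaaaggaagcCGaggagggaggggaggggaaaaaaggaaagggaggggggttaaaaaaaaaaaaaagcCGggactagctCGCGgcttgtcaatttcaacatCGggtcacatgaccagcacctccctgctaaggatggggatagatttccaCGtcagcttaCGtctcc
Hoxd12: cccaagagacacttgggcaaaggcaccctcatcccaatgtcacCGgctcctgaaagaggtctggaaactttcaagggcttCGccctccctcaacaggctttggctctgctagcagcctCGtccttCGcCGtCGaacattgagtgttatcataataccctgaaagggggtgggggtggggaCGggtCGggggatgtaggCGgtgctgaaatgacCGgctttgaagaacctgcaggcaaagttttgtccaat
Hoxa6: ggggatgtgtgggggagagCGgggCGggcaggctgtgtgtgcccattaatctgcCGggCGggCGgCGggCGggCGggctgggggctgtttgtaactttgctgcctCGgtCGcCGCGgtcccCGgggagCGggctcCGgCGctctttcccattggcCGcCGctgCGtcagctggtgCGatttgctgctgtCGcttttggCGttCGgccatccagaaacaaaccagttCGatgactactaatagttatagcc
The 4 windows touched in all 7 libraries (Hoxa3, Hoxa5, Hoxd1 and Hoxd13) held a median of 26 CpG, from 18 to 31. The 8 windows touched in 1 to 6 libraries held a median of 13.5, and the 12 windows touched in none a median of 7.5, from 2 to 24. Across 32619 reference promoters of the same length the median was 6. The ranges overlap, the number of starts is small and no test was made of this order. A window touched in none is not the same as a closed start. Among these, the Hoxd8 start and the inner Hoxa10 start had a summit within 1 kb in all 7 libraries, and the Hoxc4 start in 5. Hoxa6 and its 24 CpG show that a window rich in CpG need not carry a peak, and Hoxd4, with 3 CpG, was touched in 6 libraries.

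Fixed motifs were searched on both strands of the same windows, and none of them holds another. TTTATNG, a Cdx or posterior Hox type of site, was found in 2 of 24 Hox windows and in 9.76% of all reference windows. TGATTNAT, a Pbx and Hox composite, was found in 2 of 24 and in 2.84% of all. AGGTCA, a nuclear receptor half-site, was found in 6 of 24 and in 14.1% of all. A match describes letters only and says nothing of binding.

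The clusters also carry microRNA genes, small RNAs that pair with messenger RNAs through their seed (bases 2 to 8, in capitals). They are shown because they lie in or between the members and share seeds across clusters. RefSeq places 6 such genes in the spans, on GRCm38.p6.
mmu-miR-196a-5p: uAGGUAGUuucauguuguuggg
mmu-miR-196b-5p: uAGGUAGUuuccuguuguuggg
mmu-miR-10a-5p: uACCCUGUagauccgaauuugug
mmu-miR-10b-5p: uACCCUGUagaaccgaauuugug
mmu-miR-615-3p: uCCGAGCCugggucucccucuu
Both miR-196 sequences share 1 seed, and so do both miR-10 sequences. Mir615, in the body of Hoxc5, had a peak summit within 1 kb in all 7 libraries. Mir196b, between Hoxa9 and Hoxa10, had one in 5 libraries (Syn 1, Syn 2, Allo 2, Allo 3 and Allo 4), and Mir196a-1, in HoxB, in Allo 1 alone. Mir10a, in the body of Hoxb3, Mir10b, in that of Hoxd4, and Mir196a-2 had none in any library.

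Hox chromatin was open in part. In pools of cells, a region open in fewer cells and a region less open in each cell cannot be told apart. The members held 46, 56 and 50 peaks in Syn 1, 2 and 3 and 39, 45, 57 and 53 in Allo 1, 2, 3 and 4, that is 50.7 ± 5.03 (SD, n = 3) against 48.5 ± 8.06 (SD, n = 4). The groups overlapped, and the Allo counts followed list length: Allo 1 was lowest and Allo 3 highest in both. Per 10000 peaks the range was 6.40 to 7.60 in Syn and 5.91 to 6.49 in Allo. The peaks were of modest strength. Placed in its own list by the authors' −log10 p (percentile, with 100 the strongest), the median Hox peak stood at 31.6 to 35.3 in Syn and 27.3 to 38.1 in Allo, and no Hox peak passed 87.2.

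By the presence of a gene-end peak, 17 of 38 members were open in all 7 libraries, 13 in none and 8 in some. Over all protein-coding genes these shares were 57.6%, 33.8% and 8.6%. A gene-end peak can belong to a neighbour or lie away from the start. That of Hoxa6 is the peak at the Hoxa5 start and counts for both. At Hoxb8 the nearest summit lay 2656 to 2952 bp from the annotated start. No peak of any kind was found for 5 members, Hoxa2, Hoxa11, Hoxc8, Hoxc12 and Hoxd12 (23.7% of all genes). The open share, meaning the part of the gene body and its 1 kb flanks that peaks covered, had a median of 6.65% over members and 4.06% over all genes. Member windows are short, with a median of 5721.5 bp against 19329 bp, so the shares are not matched for gene length. At annotated starts, 10 of 22 members had a summit within 1 kb in all 7 libraries and 8 in none, beside 47.1% and 44.8% of all genes with a start.

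**Figure D1:**
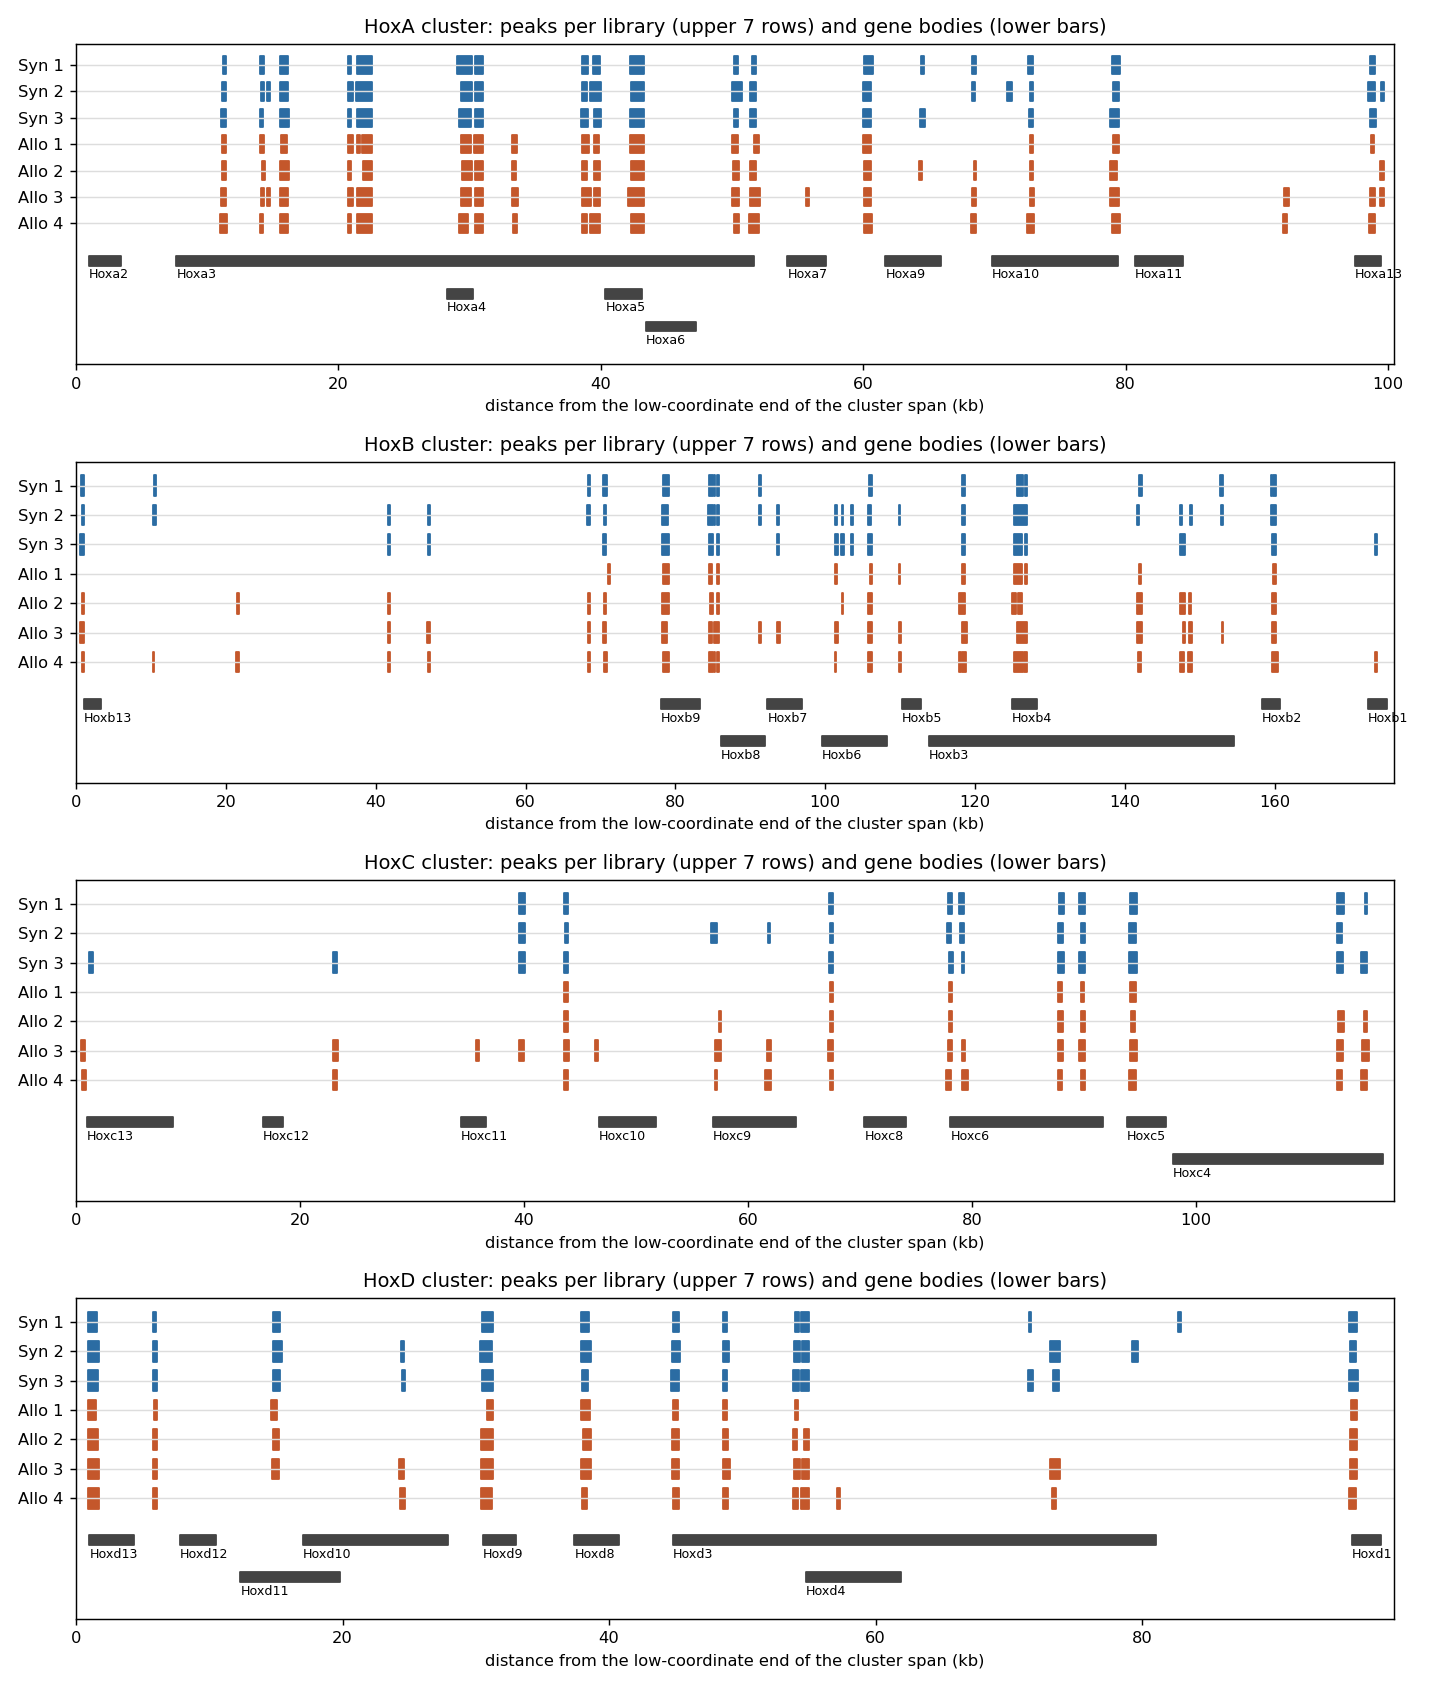
Peaks of each library (Syn in blue, Allo in orange, 1 row per library) and gene bodies (dark bars) along the 4 cluster spans, by distance in kb from the low-coordinate end of the span. The bodies of Hoxa3, Hoxa4, Hoxa5, Hoxd8 and Hoxd3 carry peaks in every row, those of Hoxa6, Hoxa11 and Hoxc12 in none, and the long span between Hoxb13 and Hoxb9 holds scattered peaks that differ between rows.

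HoxA (chr6:52161417-52261880) had the largest covered share of the 4 spans. Its peaks covered 9.47%, 10.7% and 9.47% in Syn and 8.50%, 8.50%, 11.7% and 10.3% in Allo. The group means were 9.89% ± 0.72 (SD, n = 3) and 9.76% ± 1.57 (SD, n = 4). Hoxa4, a member used from the hindbrain to the gut, had the highest open share of the cluster, and Hoxa5, a regulator of lung and gut mesoderm patterning, the next. Hoxa5 stood at 32.0%, 35.2% and 32.2% in Syn and 31.2%, 30.2%, 35.02% and 33.1% in Allo, so the groups overlapped. Both lie inside the long body annotated for Hoxa3 and share their peaks with it. Hoxa3 itself had 12 to 14 peaks in each library, covering 14.2% to 18.6%.

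The other HoxA members fell into open and closed neighbours. Hoxa6 had 1 peak in each library, in its flank, and no peak touched its body (chr6:52204737-52211402, 6.67 kb without a peak in any library). Hoxa10, a posterior gene of limb and reproductive tract, was open in all 7 at 5.79% to 9.22%. Hoxa13, a hindgut and genital gene, was also open in all 7, at 5.26% to 18.3%, with a peak at its annotated start in Syn 2, Allo 2 and Allo 3, in Allo 2 its only one. Hoxa7 carried 1 peak, in Allo 3, and Hoxa9 had 1 peak in Syn 1, Syn 3 and Allo 2. Hoxa11, a gene of limb patterning, lay inside 12.5 kb without a peak (chr6:52240957-52253424). Hoxa2, the most anterior HoxA member described here, lay inside another 10.99 kb (chr6:52161417-52172404).

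HoxB (chr11:96193316-96369254) was covered to 3.55%, 5.36% and 4.52% in Syn and to 2.73%, 4.36%, 5.48% and 5.60% in Allo. The means were 4.48% ± 0.91 (SD, n = 3) and 4.54% ± 1.33 (SD, n = 4). Its strongest region lay in Hoxb9 (chr11:96271491-96272473), with a median list percentile of 81.5, the highest of any region in the 4 spans. Hoxb4, a member known from stem cells of the blood, had open shares of 21.6%, 34.0% and 24.2% in Syn and 25.1%, 20.3%, 25.4% and 28.8% in Allo. These peaks lay inside the gene, and only Allo 2 had a summit within 1 kb of its start. Hoxb2 was open in all 7, at 14.3%, 15.3% and 14.1% in Syn and 9.98%, 11.5%, 13.5% and 15.6% in Allo. Hoxb3, whose body holds Hoxb4, had 4 to 7 peaks in each library and Hoxb8 had 1 to 3. Hoxb6 had 1 to 4 peaks, all away from its ends.

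Several HoxB members were open in some libraries only, and these patterns crossed both groups. Hoxb13, the posterior end of the cluster and a gene of the hindgut and prostate, had its gene-end peak in 6 libraries: the open share was 8.96%, 5.96% and 10.6% in Syn and 0%, 5.96%, 11.04% and 7.40% in Allo. Hoxb5, which acts in the enteric nervous system, was open in Syn 2 (5.36%) and in Allo 1, 3 and 4 (4.84%, 5.81% and 6.01%). Hoxb7 reached 1.57%, 5.23% and 4.31% in Syn and 7.82% in Allo 3, and was at 0 in the other Allo libraries. Hoxb1, an anterior hindbrain gene, had 1 peak in Syn 3 (5.50%) and 1 in Allo 4 (6.17%). Allo 1, the shortest list, was the 1 library without the Hoxb13 peak. Between Hoxb13 and Hoxb9 the cluster held 2 spans without a peak in any library, 19.9 kb (chr11:96215046-96234956) and 20.9 kb (chr11:96240573-96261465).

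HoxC (chr15:102920131-103037856) had the widest range over the Allo libraries. Peaks covered 3.81%, 3.99% and 4.57% in Syn and 1.71%, 2.57%, 6.05% and 4.60% in Allo, so the Allo values lay on both sides of the Syn values. The means were 4.12% ± 0.40 (SD, n = 3) and 3.73% ± 1.96 (SD, n = 4). Hoxc6 and Hoxc5, of the trunk part of the cluster, were open in all 7 libraries. Hoxc6 stood at 11.2%, 10.4% and 10.8% in Syn and at 5.58%, 6.64%, 10.8% and 10.97% in Allo, with Allo 1 and 2 below the other 5. Hoxc4 was at 0 in Allo 1 and between 2.45% and 5.84% in the others. Hoxc8, a trunk gene, had no peak.

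The posterior HoxC members had no gene-end peak or had one in some libraries only. A region between Hoxc11 and Hoxc10, described below, was open in all 7. Of the 5 HoxC members of groups 9 to 13, 0 were open at an end in all 7 libraries, and 4 were so in some. Counted by library, 0, 1 and 1 of the 5 were open in Syn 1, 2 and 3, and 0, 1, 4 and 2 in Allo 1, 2, 3 and 4. Hoxc9 reached 7.80% in Syn 2 and 2.28%, 9.32% and 7.43% in Allo 2, 3 and 4. Hoxc13, a gene of hair and nail, reached 3.73% in Syn 3 and 3.95% and 3.59% in Allo 3 and 4. Hoxc10 (3.59%) and Hoxc11 (6.35%) had a peak in Allo 3 alone, the library with the most peaks. Hoxc12 lay inside the longest empty span of the 4 clusters, 21.4 kb (chr15:102921618-102943042).

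HoxD (chr2:74667225-74766142) was covered to 5.49%, 7.47% and 6.57% in Syn and to 3.92%, 5.24%, 7.02% and 5.68% in Allo. The means were 6.51% ± 0.99 (SD, n = 3) and 5.47% ± 1.28 (SD, n = 4), and the groups overlapped. Hoxd13, the most posterior member and a limb and hindgut gene, was open at its start in all 7, at 13.5%, 15.7% and 14.4% in Syn and 11.5%, 13.8%, 15.4% and 15.6% in Allo. Hoxd9 stood at 18.5%, 19.996% and 19.6% in Syn and at 9.96%, 21.01%, 20.6% and 19.01% in Allo, where Allo 1 alone was low. Hoxd1 (11.8% to 16.5%), Hoxd3 (2.51% to 8.50%), Hoxd4 (2.55% to 12.8%) and Hoxd8 (7.69% to 14.7%) had a gene-end peak in every library. Hoxd3 and Hoxd4 share the peaks of the body that holds both.

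Between these genes of HoxD lay members with fewer peaks. Hoxd12 had no peak, inside 8.51 kb that no list covered (chr2:74673328-74681837). Hoxd11 had 1 peak, at an inner annotated start, in each library except Allo 4. Hoxd10, whose body overlaps that of Hoxd11, had 1 peak in Syn 2, Syn 3, Allo 3 and Allo 4, at 1.58%, 1.72%, 2.56% and 2.97%. The peaks of Hoxd11 and Hoxd10 lay at annotated starts, although not within 1 kb of an end of the gene body.

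**Figure D2:**
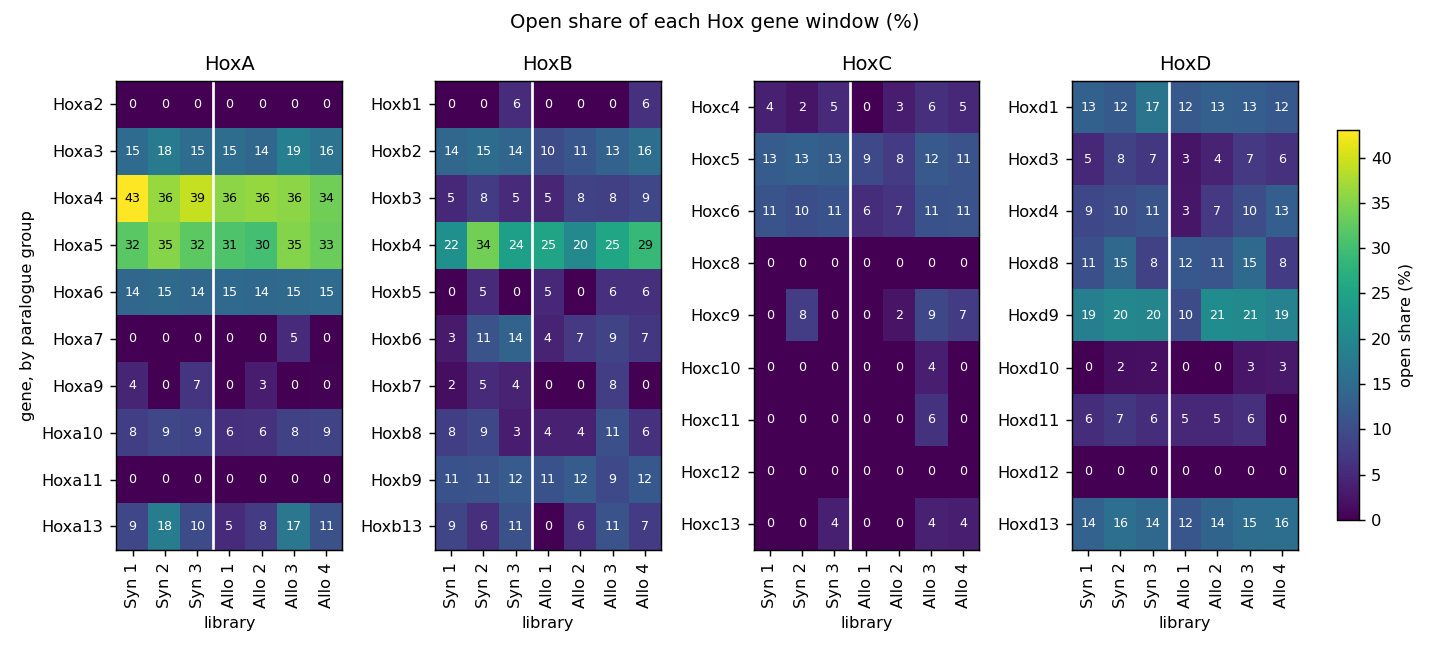
Open share (% of the gene body and 1 kb on either side covered by peaks) of each of the 38 members, by cluster and paralogue number, in each library, with the white line between Syn and Allo. Hoxa4, Hoxa5 and Hoxb4 stand at 20.3% to 43.0% in every library, and Hoxa2, Hoxa11, Hoxc8, Hoxc12 and Hoxd12 at 0 in all.

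**Figure D3:**
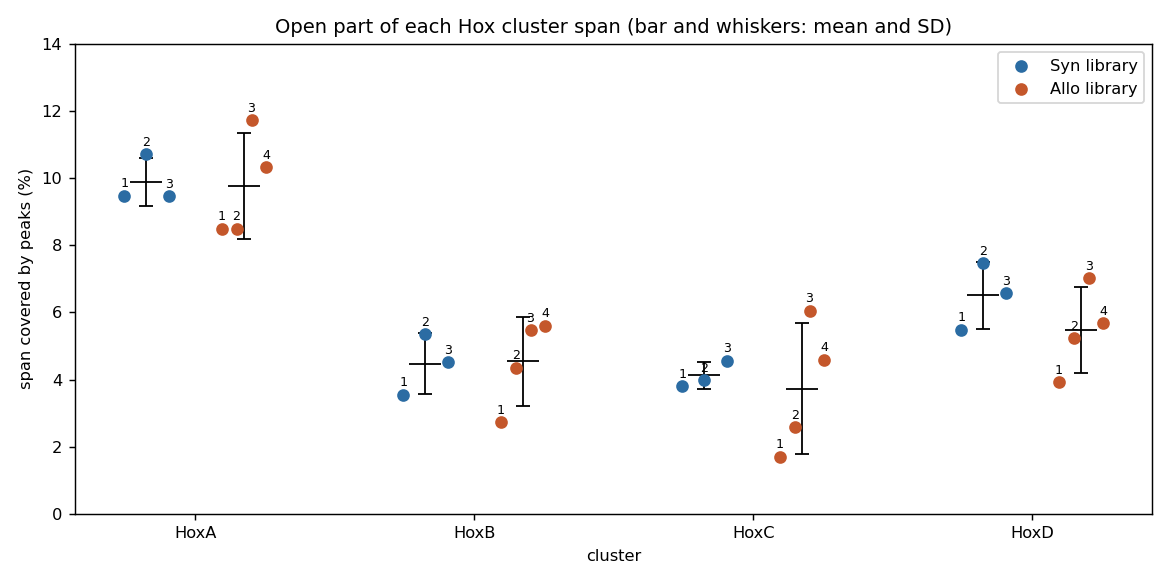
Part of each cluster span covered by peaks (%), 1 point per library with its replicate number, and the mean and SD of each group. Syn and Allo points overlap in all 4 clusters, and Allo 1 is below Allo 3 in each.

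Grouped by paralogue number, the members showed the following. Of the 11 members of groups 1 to 4, 6 were open at an end in all 7 libraries, 1 in some and 4 in none. Groups 5 to 8 gave 6, 2 and 3 of 11, and groups 9 to 13 gave 5, 5 and 6 of 16. The median open share was 9.04%, 7.86% and 2.96% in that order. Over all genes, 57.6% were open at an end in all 7 libraries, 8.6% in some and 33.8% in none. Some peaks count for 2 members here, as Hoxa4, Hoxb4 and Hoxd4 lie inside the bodies of Hoxa3, Hoxb3 and Hoxd3. Within the posterior block, groups 9 and 13 each had 2 of 4 members open at an end in all 7 libraries (Hoxb9 and Hoxd9, and Hoxa13 and Hoxd13). Of the others of these groups, Hoxc9, Hoxb13 and Hoxc13 were so in some libraries and Hoxa9 in none. Among Hoxa11, Hoxc11, Hoxd11, Hoxc12 and Hoxd12, of groups 11 and 12, Hoxc11 was the 1 member with a gene-end peak, in 1 library, while Hoxd11 had a peak at an inner annotated start in 6. These counts are descriptions of few genes and were not tested.

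The comparison of Allo with Syn asked whether Hox chromatin differs between recipient types. A gene was called when its 4 Allo and 3 Syn values did not overlap. By open share, 0 of 33 members with a peak lay above Syn in all Allo libraries, where 2.87% of all genes did, and 2 of 33 lay below, where 5.56% did. By number of peaks, 0 members lay above (1.88% of all genes) and 0 below (0.909%). By gene-end peak, 0 members were open in every Allo library but no Syn library (0.157%), and 0 showed the reverse (0.0832%). The share below is near the background and is no result about the Hox genes as a set. The difference of group means was under 0 for 22 of the 33 members and over 0 for 11, beside 8725 below and 7836 above over all genes, with a median of −0.74 percentage points, beside −0.028 over all genes with a peak. The exact permutation test over 35 relabellings can give no p below 0.0286, and after Benjamini-Hochberg adjustment over all genes the smallest adjusted p was 0.760 for open share and 1 for peak number.

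The 2 members below were Hoxa4 and Hoxc5. Hoxa4 (chr6:52189682-52191703) had open shares of 43.0%, 36.4% and 39.3% in Syn and 35.6%, 36.2%, 35.6% and 33.8% in Allo. The lowest Syn and the highest Allo value lay close together, and the means were 39.6% ± 3.33 (SD, n = 3) and 35.3% ± 1.03 (SD, n = 4; two-sided exact permutation p = 0.0286, adjusted p = 0.760). Hoxc5 (chr15:103014008-103017429) stood at 12.6%, 13.1% and 12.8% in Syn and 9.42%, 7.71%, 12.01% and 10.97% in Allo. Its means were 12.8% ± 0.29 (SD, n = 3) and 10.03% ± 1.88 (SD, n = 4; two-sided exact permutation p = 0.0571, adjusted p = 0.760). Both had the same number of peaks in every library, 2 and 1, so the difference was one of width. Over all peaks the median width was lower in the Allo lists, as given above, but over the Hox peaks it was 384.5, 423 and 460 bp in Syn and 373, 461, 500 and 477 bp in Allo, so the groups overlapped. The part of peak width in general in these 2 differences was not tested. With peaks reset to 250 bp on either side of each summit, both differences were 0. Equal numbers of peaks of 1 fixed width lead to that value, so it is no further check. With gene flanks of 500 bp the difference for Hoxa4 went from −4.32 to −6.78 percentage points, but its groups then overlapped. Some marker genes also lay lower by open share in all Allo libraries, as 5.56% of all genes did. These were Spi1 of 8 leukocyte genes and Col1a2 and Dcn of 9 stromal and endothelial genes. Col1a2 had 1 peak in each Syn library and 0 in each Allo library. By number of peaks, 0.909% of all genes lay below Syn in all Allo libraries. The summed peaks of the stromal list were 14 to 17 in Syn and 11 to 22 in Allo, and those of the leukocyte list 5 to 7 and 5 to 11, and their part in the Hox values was not tested.

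Regions give a finer view than genes. Peaks of the 7 libraries that overlapped were merged, which gave 82 regions in the 4 spans, 65 of them within the 1 kb rule. Of these 65, 30 were open in all 7 libraries and 7 in a single one. Over all 103809 merged regions those classes held 48.5% and 16.6%. At the edge of the rule, the nearest regions inside lay 445 bp from Hoxb8 and 346 bp from Hoxc13, open in 7 and 2 libraries. The nearest outside lay 1267 bp from Hoxa9 and 1298 bp from Hoxb8, both open in all 7.

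A single Hox region was open in every Allo library but in no Syn library, 1 of 65 beside 1.14% of all regions, and 0 showed the reverse, beside 1.01%. It lay in the body annotated for Hoxa3, beyond Hoxa4 (chr6:52194630-52195123, 494 bp), 9719 bp from the annotated start of Hoxa5. The peaks were weak to medium in their lists, at percentiles of 19.2, 2.17, 45.9 and 18.996 in Allo 1, 2, 3 and 4. Under a stricter −log10 q of at least 5 the region was left in 75% of the Allo libraries, and with lists cut to 1 length in 50%. With 65 regions looked at, a count of 1 is near the background.

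Strength was compared over the 50324 regions open in all 7 libraries, ranked within each library as a percentile (100 the strongest) so that every list had the same length. Among the 30 such regions within the rule, 1 ranked higher in all Allo than in all Syn libraries, where 8.41% of all shared regions did, and 3 ranked lower, where 8.86% did. Counting all 35 shared regions of the spans gave 2 higher and 4 lower. These counts are again near the background, and the smallest adjusted p over all shared regions was 0.329.

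The regions with the widest separation lay in pairs or between genes. In Hoxa4 (chr6:52190466-52191631) the rank was 69.9, 59.6 and 61.2 in Syn and 30.3, 54.2, 39.6 and 41.7 in Allo. The Syn mean was 63.6 ± 5.52 (SD, n = 3) and the Allo mean 41.4 ± 9.83 (SD, n = 4; two-sided exact permutation p = 0.0571, adjusted p = 0.342). The next region, 149 bp further on (chr6:52191781-52192468), went the other way, at 40.4, 42.6 and 49.3 in Syn and 60.8, 61.4, 59.8 and 58.9 in Allo. Its means were 44.1 ± 4.62 (SD, n = 3) and 60.2 ± 1.08 (SD, n = 4; two-sided exact permutation p = 0.0286, adjusted p = 0.329). In every Syn library the region in Hoxa4 was thus the stronger of the pair, and in every Allo library its neighbour was.

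A second pair, between Hoxb9 and Hoxb8, behaved in the same manner. The first region (chr11:96277648-96278319), 1298 bp from Hoxb8 and so outside the rule, ranked at 53.2, 35.5 and 47.1 in Syn and at 6.64, 9.56, 14.4 and 6.02 in Allo. The means were 45.3 ± 8.99 (SD, n = 3) and 9.15 ± 3.82 (SD, n = 4; two-sided exact permutation p = 0.0286, adjusted p = 0.329). Its neighbour, 109 bp on (chr11:96278429-96279120) and 445 bp from Hoxb8, ranked at 22.4, 28.5 and 18.5 in Syn and 24.3, 46.2, 28.1 and 31.6 in Allo, with overlap. The first region was the stronger in every Syn library and the weaker in every Allo library. Over the genome 3267 pairs of shared regions lie at most 1 kb apart, and in 38 of them (1.16%) the stronger member differed between all Allo and all Syn libraries. The Hox spans hold 4 such pairs, and 2 of them are those described. This count was made after the values had been seen and carries no test. Ordered by the authors' fold over background, the same 2 pairs differed, and 36 pairs (1.1%) over the genome. With peaks reset to 250 bp on either side of each summit, the difference read at the first region between Hoxb9 and Hoxb8 went from −36.1 to −12.7 percentile points. In Syn 1, Syn 2 and Allo 4 a further peak lay in the second region, at the end nearer the first, and its reset window joins the 2 regions. The −12.7 is therefore a value of the joined pair and does not measure the first region alone.

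The other separating regions stood alone. Between Hoxc11 and Hoxc10 (chr15:102963681-102964112), outside the rule, the rank was 45.1, 17.0 and 18.4 in Syn and 66.2, 67.7, 57.4 and 55.0 in Allo. The means were 26.8 ± 15.8 (SD, n = 3) and 61.6 ± 6.29 (SD, n = 4; two-sided exact permutation p = 0.0286, adjusted p = 0.329). Both flanking genes had no peak in 6 of the 7 libraries while this region was open in all. Another region between the same genes (chr15:102959669-102960245), also outside the rule, was open in all 3 Syn libraries. Of the Allo libraries, Allo 3 alone had it. In Hoxc5 (chr15:103014124-103014914), close to Mir615, the rank was 20.3, 11.4 and 29.9 in Syn and 6.23, 4.91, 11.1 and 8.42 in Allo. The lowest Syn value barely exceeded the highest Allo value, and this is the peak whose width set the value of Hoxc5 in the gene comparison. In Hoxd8 (chr2:74705081-74705884) the rank was 19.7, 13.9 and 12.4 in Syn and 11.2, 5.20, 8.71 and 2.92 in Allo.

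**Figure D4:**
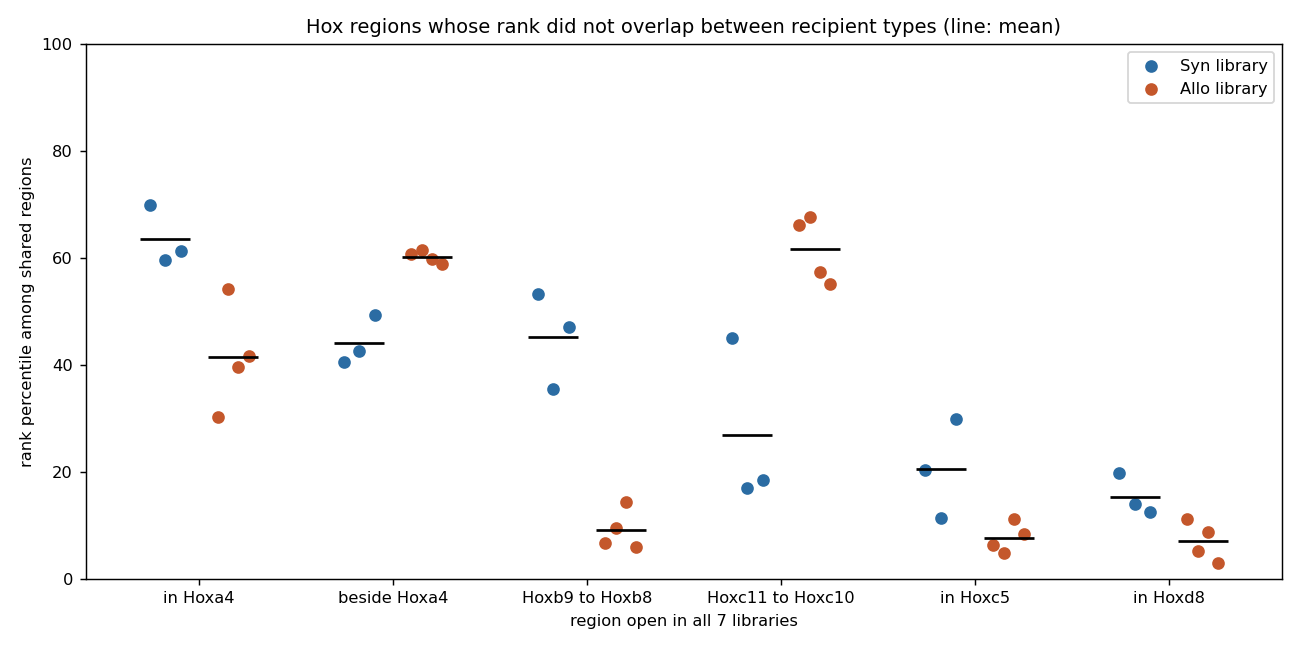
Rank percentile among the 50324 regions open in all 7 libraries, for the 6 shared regions of the Hox spans whose Syn and Allo values did not overlap, 1 point per library and a line at each group mean. The region in Hoxa4 had means of 63.6 in Syn and 41.4 in Allo and the region beside it 44.1 and 60.2, and no adjusted p was below 0.329.

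Genes that act with the Hox genes were taken from 5 lists. Over all protein-coding genes, 57.6% were open at an end in all 7 libraries. Among the TALE cofactors, homeodomain proteins that bind DNA with Hox proteins, 8 of 9 were open at an end in every library, all but Meis3. By open share 1 of 9 lay above Syn in all Allo libraries and 1 below. Pknox2 had 2, 3 and 3 peaks in Syn and 4, 7, 9 and 6 in Allo, and its open share was 0.671%, 0.705% and 0.788% against 0.980%, 1.23%, 1.70% and 1.15% (two-sided exact permutation p = 0.0571, adjusted p = 0.760). Meis2 went the other way, at 2.79%, 3.18% and 3.28% in Syn and 1.92%, 2.73%, 2.45% and 2.10% in Allo (two-sided exact permutation p = 0.0571, adjusted p = 0.760). With the background of 2.87% and 5.56% for these calls, 1 gene of 9 in each direction is a small count.

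The ParaHox and linked homeobox genes gave 4 of 8 open at an end in all 7 libraries, 2 in some and 2 in none, and 0 of 8 separated the groups. Cdx2, the factor that gives the intestine its identity and is known to act on Hox genes, was covered to 20.9% to 24.3% in every library. Of 9 regional gut factors such as Gata4, a gene of the small intestine, 7 were open in all 7 libraries and 2 in some. None of the 9 separated. In the retinoic acid axis, a signal that sets Hox expression in the embryo, 3 of 7 were open at an end in all libraries. By open share 1 gene of 7 lay below Syn in all Allo libraries, beside 5.56% of all genes. That gene was Aldh1a1, a retinal dehydrogenase, at 3.10%, 3.31% and 3.80% in Syn and 1.37%, 2.49%, 2.27% and 2.17% in Allo (two-sided exact permutation p = 0.0286, adjusted p = 0.760). Of 14 genes of PRC1 and trithorax complexes 13 were open at an end in all 7 libraries. Of the 14, 1 lay below Syn in all Allo libraries, which is near the 5.56% of all genes. Phc1, a PRC1 subunit, was the 1 gene of these that lay below Syn, at 7.49%, 7.87% and 8.01% in Syn and 7.05%, 6.95%, 7.29% and 6.96% in Allo (two-sided exact permutation p = 0.0286, adjusted p = 0.760).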

How the data were processed

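Open chromatin was profiled in 7 libraries, grouped by the recipient in the sample titles. Each is a separate pool of mice per the labels. The build mm10 and the tools MACS2, MACS3, Bowtie2 and Trim Galore are named in the submitters' processing notes, without versions or roles. The peak threshold is not given there. For every library the authors deposited a separate peak list, which gives each peak a summit, a score, a fold over the local background and −log10 values of p and of q. The lowest −log10 q was 1.30 to 1.42. These values are the authors' and were used to rank or filter peaks within their own list. Since no read counts or genome sequence were used here, depth is unknown and sequences came from RefSeq tables of GRCm38.p6.

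The lists were limited to chromosomes 1 to 19 and X, and peaks overlapping by at least 1 bp were merged. Values were compared by two-sided exact permutation over 35 relabellings, with Benjamini-Hochberg adjustment at 0.05 over all genes or shared regions. The members and lists were chosen with earlier results of these data known. Values per library are given for members open at an end in some libraries, the 2 highest and 2 lowest per cluster, and members or regions without overlap between groups. The alternatives tried were a stricter −log10 q (5 or more), lists of matched length, windows of 500 bp and peaks reset to 250 bp on either side of the summit. Others were 50% coverage of a region, ranks by fold, annotated starts only, the sign over same-numbered pairs and leaving out libraries. The scripts were tested on simulated data. No 2 lists shared an identical peak. Tools were pandas 2.3.3, scipy 1.17.1, numpy 2.4.6 and Python 3.11.15.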

Additional observations from a re-analysis of the deposited data

Results flagged for a closer look

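In 6 of 47 sets of 4 Allo values, 1 library stood far from the other 3, where chance alone gives about 1 in 20. In 5 of the 6 flagged sets the other 3 libraries were at 0, so a single peak sets the value and the rule flags such a set in any case. Allo 3, the library with the most peaks, stood apart with an open share of 5.15% at Hoxa7, 7.82% at Hoxb7, 3.59% at Hoxc10 and 6.35% at Hoxc11. Allo 4 stood apart at Hoxb1 with 6.17%. Allo 2 stood apart at Hoxa9 with 3.25%, where the others were between 0 and 0.223%.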

How the results depend on the processing

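Calls without overlap between groups rested on few libraries, and with fewer libraries the share called over all genes or regions rises too. The count of members called by open share, 2, became 1 with 500 bp windows (Hoxc5). It became 1 with peaks reset to 250 bp on either side of the summit (Hoxa3, a different member). It was 11 without Allo 3 and 4 (39.5% of all genes) and 6 without Allo 1 and 2 (41.2%). With 1 library left out it was 2 to 5 (11.3% to 15.6% of all genes), with 5 without Syn 2 and 4 without Allo 3. Each of these shares is over the genes that peaks still covered in that setting. The count by number of peaks, 0, became 3 without Allo 3 and 4 (7.71% of all genes), and 0 to 1 when 1 library was left out (3.47% to 6.42%; 1 without Syn 1, Syn 2, Syn 3 or Allo 3). The gene-end count, 0, became 0 to 1, with 1 without Syn 3 (0.448% of all genes). The 1 region open in Allo alone became 0 at a −log10 q of at least 5 and 0 with lists of matched length. There were 2 such regions without Allo 3 and 4 (4.81% of all regions), also 2 without Allo 1 and 2 (9.12%), and 1 to 2 with 1 library left out (2.65% to 3.85%), 2 without Syn 1 or Syn 2. The count of regions called by rank, 4, became 9 without Allo 3 and 4 (33.3% of shared regions), 12 without Allo 1 and 2 (44.7%) and 5 to 8 with 1 library left out (21.3% to 28.0%), with 8 without Syn 2, 8 without Allo 2 and 7 without Allo 4. Covered shares of the 4 clusters moved by less than the spread between libraries under the 14 settings. The sign of the Allo minus Syn difference was kept in 14 of them for HoxD, 11 for HoxC, 9 for HoxA and 6 for HoxB.

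The groups share replicate numbers. A count over the 3 same-numbered pairs, without Allo 4, asked whether the Allo minus Syn difference had 1 sign in all 3. This rule is looser than the call without overlap. It gave 6 members by open share (20.2% of all genes), 1 by number of peaks (4.58%) and 15 regions by rank (37.5% of shared regions). The other counts stayed as they were. Same-numbered libraries had correlations of 0.154, −0.031 and 0.131 in their deviations. For Syn 1 and Syn 3 the same-numbered Allo library gave the highest value, while Syn 2 correlated best with Allo 4 (0.034). The labels do not say whether same-numbered libraries share more than a number, and these few values cannot decide it. Depth is unknown, peak lists cannot show openness below the calling threshold, and an absent peak is not a closed gene in every cell. With 3 and 4 libraries the smallest p is 0.0286, and no adjusted p passed the threshold, the smallest being 0.329.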
